A study of Mus musculus with 10 samples.

Results

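The transcripts described here are those of 9 genes that carry signals from an injured axon to the nucleus: the importin alpha genes Kpna1, Kpna2, Kpna3, Kpna4 and Kpna6, the importin beta gene Kpnb1, the small GTPase gene Ran and its binding partner Ranbp1, and the transcription factor gene Stat3. They were chosen by name from 45195 gene IDs with deposited values, and each was found under 1 Ensembl ID. The study measured polyadenylated RNA from neurites of cultured mouse cortical neurons (C57BL/6 background), which were taken from E16.5 embryos, plated on porous membranes (pore size 3 µm) and kept for 8 days. Wild-type neurons and neurons homozygous for a loxP-flanked Cpeb1 (Cpeb1 flox/flox), called knockout here, all received an AAV2 virus at plating that expresses Cre from the ubiquitous CAG promoter. Neurites of the naive groups were left alone, and those of the injured groups were scraped off below the membrane on day 7 and lysed 24 hours later, so injury and the age of the neurites cannot be told apart. Cpeb1 encodes an RNA-binding protein, and the comparisons ask how neurite RNA differs after injury and when this protein's gene is deleted.

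There were 10 libraries, 3 for each wild-type group and 2 for each knockout group. The labels do not say whether replicates were separate cultures, so a p-value here reflects no more than the spread among these libraries, which may be technical. In bulk RNA of this kind, fewer neurites of a type and less RNA per neurite cannot be told apart.

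Importin alpha proteins bind the nuclear localization signal of a cargo and link it to importin beta, which carries the complex through the nuclear pore, and Ran bound to GTP releases the cargo inside the nucleus. In uninjured axons of peripheral nerve importin alpha is found bound to the motor dynein, whereas importin beta is made on site from axonal mRNA after injury. Ranbp1 is likewise made there after injury and helps to strip Ran from importins, and Stat3, activated by cytokines of the interleukin 6 family, is among the cargoes carried back to the cell body.

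The depth estimated for each library ranged from 21.4 to 27.7 in units of 1000000 fragments, and the lowest estimate for a member in any library was 470 fragments (Kpna6). On the deposited scale of FPKM (fragments per kilobase of transcript and per 1000000 fragments), Cpeb1 itself was 7.16, 5.96 and 5.86 for wild-type naive replicates and 1.65, 13.8 and 22.6 after injury. Its knockout values were 5.97 and 0.356 (naive) and 1.14 and 3.15 (injured). The library labelled knockout naive replicate 1 thus lay within the wild-type naive range, against its label, and wild-type injured replicate 1 lay within the knockout injured range. Between genotypes Cpeb1 did not pass limma's test, with log2 differences of -1.25 ± 0.91 (SE) in naive and -1.71 ± 0.91 in injured neurites (limma adjusted p = 0.549 in injured). Genotypes are given as labelled. All 10 neuron markers were present, with sums of 2681 to 5003 FPKM. The 10 astrocyte markers (sums of 501 to 1810) were present too, except that S100b was listed at 0 in 5 libraries. So were the 8 radial glia markers, except Hes1 at 0 in 1 library, and the RNA was thus not of neurons alone. Among the radial glia markers Fabp7 alone was 2106 to 4075 FPKM, and the other 7 summed to 131 to 738 FPKM. Of 8 microglia markers Cx3cr1 and Tmem119 were listed at 0 in every library, and the list's sum reached at most 18.7.

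The 2 genes of the Ran system were the most abundant members. Over the 10 libraries Ranbp1 averaged 260 FPKM (226 to 340) and Ran 256 FPKM (203 to 340), and in wild-type naive neurites they stood at the 97.2 and 97.1 percentile of the 15712 genes tested. FPKM is per length, so levels can be set beside each other. No library's Ran value overlapped the range of the next gene, Kpna2, which averaged 69.96 FPKM (28.4 to 119). Kpna3 followed at 34.6 FPKM, then Stat3 at 18.6, Kpna4 at 17.6, Kpna1 at 17.5, Kpnb1 at 11.5 and Kpna6 at 9.29. Kpna2 lay above Kpna3 in each of the 6 wild-type libraries (81.6 to 119 against 28.3 to 37.5 FPKM), and their ranges overlapped only through the knockout libraries, where the Kpna2 value depends on how a copy of the gene is counted. From Kpna3 downwards each gene's range overlapped that of the gene below it, as did the ranges of Ranbp1 and Ran. Kpna3 and Stat3 overlapped only through wild-type injured replicate 3 (28.3 against 38.1 FPKM). These ranges pool all 4 groups, so an overlap does not show whether neighbours differ within a library. Kpnb1, the importin beta gene, lay at the 56.4 percentile in wild-type naive neurites, close to the middle of the tested genes.

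**Figure D1:**
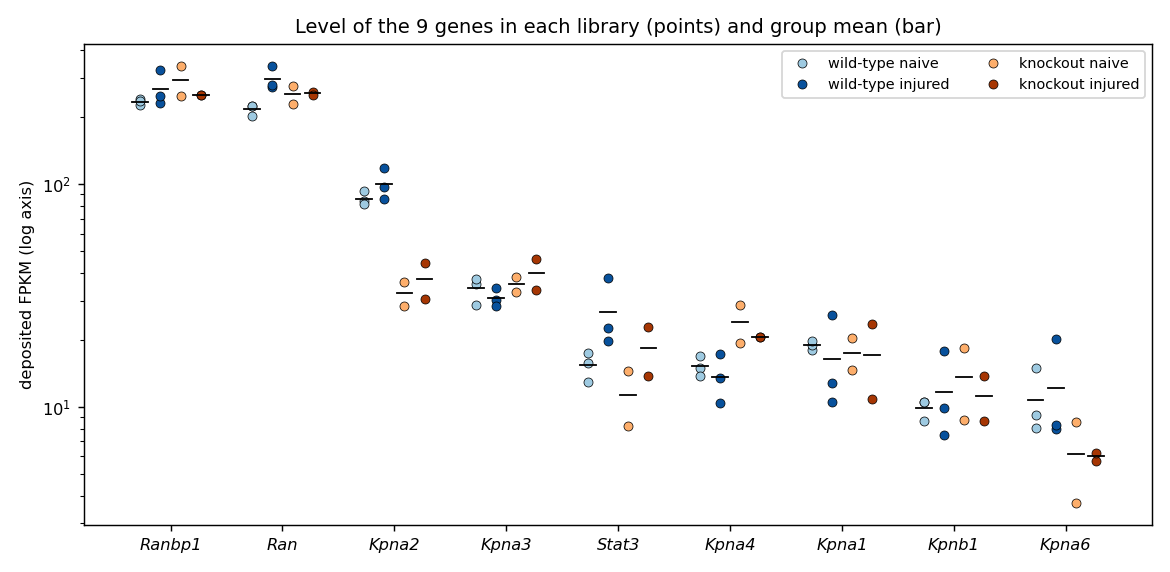
Deposited FPKM (log axis) of the 9 genes in each of the 10 libraries, ordered by mean, with points coloured by group and a black bar at each group mean. Ranbp1 and Ran lie at 203 FPKM or above in every library, and Kpna2 is the gene whose knockout libraries (28.4 to 44.5) all lie below its wild-type libraries (81.6 to 119).

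Injury was followed by no called difference in any of the 9 transcripts. In wild-type neurites 0 of 9 passed limma's test at an adjusted p under 0.05, where 0.948% of all tested genes passed, and 1 of 9 (Ran) had an unadjusted p under 0.05, as did 13.9% of all genes. In knockout neurites 0 of 9 passed, against 0.0573% of all genes, and 0 had an unadjusted p under 0.05, against 5.73%. For the interaction, the knockout's injury difference less the wild type's, 0 of 9 passed limma's test, against 0% of all genes, and none had an unadjusted p under 0.05, against 6.23%. Between genotypes 0 of 9 passed limma's test in naive neurites, against 0.146% of all genes, with 1 of 9 (Kpna2) at an unadjusted p under 0.05, against 3.76%. In injured neurites 1 of 9, Kpna2, passed, against 0.261% of all genes. The median log2 difference of the 9 genes was 0.15 and 0.022 after injury in wild type and knockout, and 0.070 and -0.076 between genotypes in naive and injured neurites, beside medians of 0.0092, -0.087, 0.063 and -0.049 over all tested genes.

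**Figure D2:**
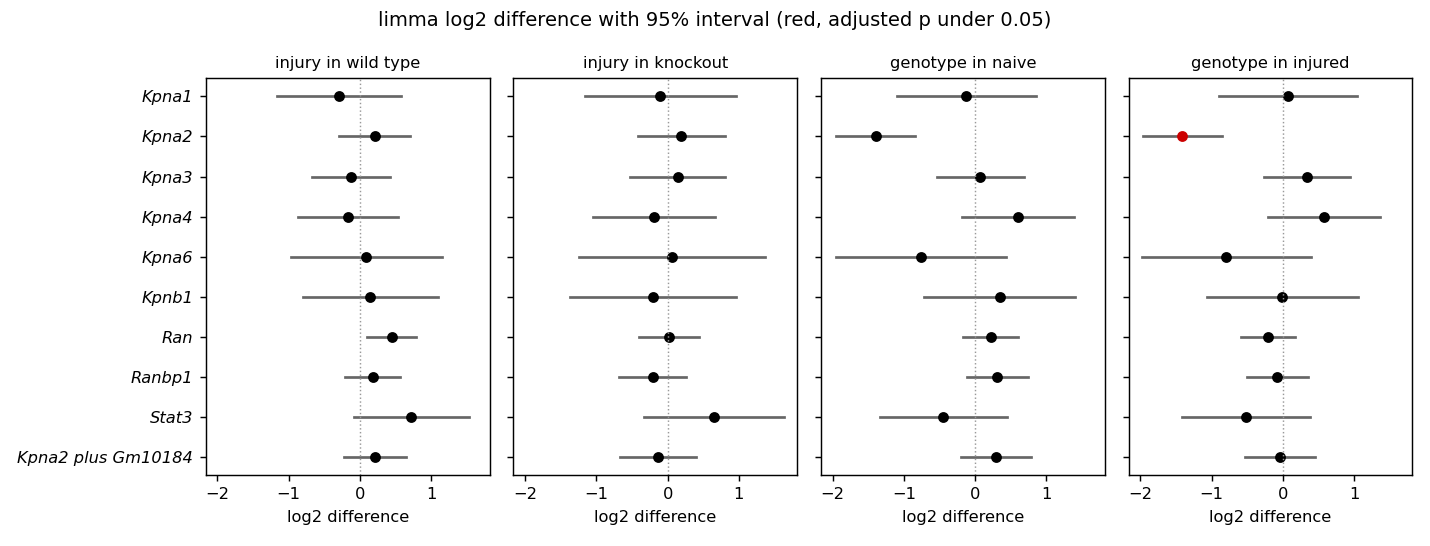
Log2 difference (point) with its 95% interval (line) from limma for each gene and for Kpna2 summed with its copy Gm10184, in the 4 pairwise comparisons, with injury as injured minus naive and genotype as knockout minus wild type; red marks an adjusted p under 0.05. Ran after injury in wild type lies wholly above 0, at 0.44, Kpna2 between genotypes lies wholly below 0, at -1.39 and -1.41, and the other members' intervals span 0; its sum with Gm10184 lies at 0.29 and -0.042.

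Kpna2, an importin alpha gene abundant in dividing cells, was 92.8, 84.1 and 81.6 FPKM in wild-type naive and 85.4, 97.1 and 119 FPKM in wild-type injured libraries. Its knockout values were 28.4 and 36.4 FPKM (naive) and 30.4 and 44.5 FPKM (injured). Every knockout library lay below every wild-type library, knockout naive replicate 1 included, whose Cpeb1 value went against its label. In injured neurites the mean was 37.5 ± 9.94 (SD, n = 2) against 100 ± 16.9 (SD, n = 3), a log2 difference of -1.41 ± 0.26 (SE; 95% interval -1.97 to -0.86), or 2.66-fold lower on the log2(value + 1) scale (limma adjusted p = 0.0417). In naive neurites it was 32.4 ± 5.63 (SD, n = 2) against 86.2 ± 5.89 (SD, n = 3), a log2 difference of -1.39 ± 0.26 (-1.95 to -0.84), which did not pass (limma adjusted p = 0.0799). Averaged over both conditions, a comparison chosen after the values were seen, the difference was -1.40 ± 0.18 (-1.79 to -1.01; limma adjusted p = 0.00227), and 1 of 9 members passed there, against 0.204% of all genes. The call in injured neurites was lost without any single library of the 10 (limma adjusted p = 0.0613 to 0.360) and with the replicate number as a block (limma adjusted p = 0.110), whereas the average over both conditions passed without any single library (limma adjusted p = 0.00426 to 0.0238).

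The genome holds a near-identical copy of Kpna2, and its value moved the other way. Kpna2 (ENSMUSG00000018362) lies on chromosome 11 from 106988629 to 106999541 (mm10, minus strand), and the copy, Gm10184 (ENSMUSG00000066878), lies on chromosome 17 from 89908462 to 89910449 and is annotated as protein coding. The Gm10184 transcript of 1988 nt spans the whole of that gene, without an intron, and over 1968 aligned bases it differs from the Kpna2 transcript of 2054 nt at 2 bases. Counted from 1 at the 5′ end of the Kpna2 transcript these are A902G and C947T, both in the coding sequence. The stretch that holds both is shown because these are the bases within the aligned part by which a read could be told apart; capitals mark them.
Kpna2, transcript bases 887 to 962: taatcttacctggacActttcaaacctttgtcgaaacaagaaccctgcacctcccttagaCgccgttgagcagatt
Gm10184, transcript bases 814 to 889: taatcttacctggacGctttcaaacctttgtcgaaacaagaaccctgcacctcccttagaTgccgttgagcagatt
A processed pseudogene on chromosome 3, Gm10259, carries the same 2 differences and C296T in addition over 1590 aligned bases, and it was listed at 0 in every library. The other 3 copies found at 95% identity or more, Gm13310, Gm16436 and Gm12919, reached at most 0.039 FPKM.

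Gm10184 was listed at 0, 0.189 and 0.394 FPKM in wild-type naive and at 0, 0.432 and 0 FPKM in wild-type injured libraries. In knockout naive libraries it was 93.2 and 55.8 FPKM, and in knockout injured libraries 59.1 and 60.1 FPKM. The genotypes were fully apart, with the copy near 0 in wild type and above Kpna2 itself in every knockout library. On the log2(value + 1) scale the difference was 5.95 ± 0.54 in naive (limma adjusted p = 8.43e-05) and 5.75 ± 0.54 in injured neurites (limma adjusted p = 0.000126), a size that depends on the pseudocount because wild-type values are near 0. It passed in 19 of 19 alternatives in either condition.

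Kpna2 and Gm10184 summed as 1 gene, also chosen after the values were seen, gave 92.8, 84.3 and 82.0 FPKM in wild-type naive and 85.4, 97.6 and 119 FPKM in wild-type injured libraries. The sum was 122 and 92.2 FPKM in knockout naive and 89.6 and 105 FPKM in knockout injured libraries. The genotypes overlapped in both conditions, with group means of 86.4 ± 5.70 (SD, n = 3) and 107 ± 20.8 (SD, n = 2) in naive and 101 ± 16.9 (SD, n = 3) and 97.1 ± 10.6 (SD, n = 2) in injured neurites. The knockout minus wild-type difference of the sum was 0.29 (95% interval -0.19 to 0.78; limma adjusted p = 1) in naive, -0.042 (-0.53 to 0.44; limma adjusted p = 0.970) in injured and 0.13 (-0.22 to 0.47; limma adjusted p = 0.887) over both conditions. Gm10184 made up 57.4% to 76.7% of the sum in knockout libraries and 0% to 0.480% in wild-type libraries. The deposited values are per gene and do not show which reads covered the differing bases, so the lower Kpna2 value cannot be told apart from a different assignment of reads between the copies. Of the 34 tested genes within 1000000 bases of Kpna2, none passed limma's test in either genotype comparison. None of the 3 within that distance of Gm10184 did. As 0.146% and 0.261% of all genes passed in naive and injured neurites, sets this small could hardly hold a call, and no conclusion is drawn. Of the 34 near Kpna2, 0 and 3 had an unadjusted p under 0.05 in naive and injured neurites (3.76% and 10.5% of all genes did). Of the 3 near Gm10184, 0 did in either condition. Of 42 genes called in either genotype comparison, 19 were annotated as pseudogenes, as were 4.02% of all tested genes.

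**Figure D3:**
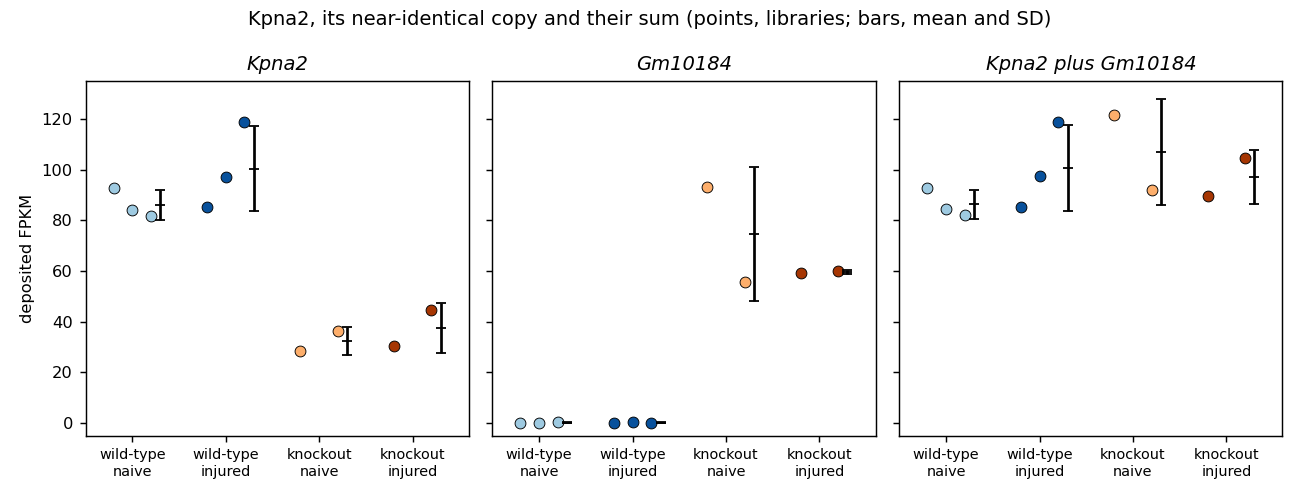
Deposited FPKM of Kpna2, Gm10184 and their sum in each library (points, by group), with group mean and SD beside them. Kpna2 is lower and Gm10184 higher in all 4 knockout libraries, and the sum, from 82.0 to 122 FPKM, overlaps between genotypes.

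The make-up of the importin alpha transcripts depended on how the copy was counted. As deposited, the 5 importin alpha genes summed to 162 to 183 FPKM in wild-type and 108 to 127 FPKM in knockout libraries, without overlap. Kpna2 was 49.6% to 64.9% of that sum in wild-type and 24.0% to 38.5% in knockout libraries. With Gm10184 counted as Kpna2 the knockout sums were 176 to 201 FPKM and the Kpna2 share was 48.2% to 60.4%, inside or just below the wild-type range.

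**Figure D4:**
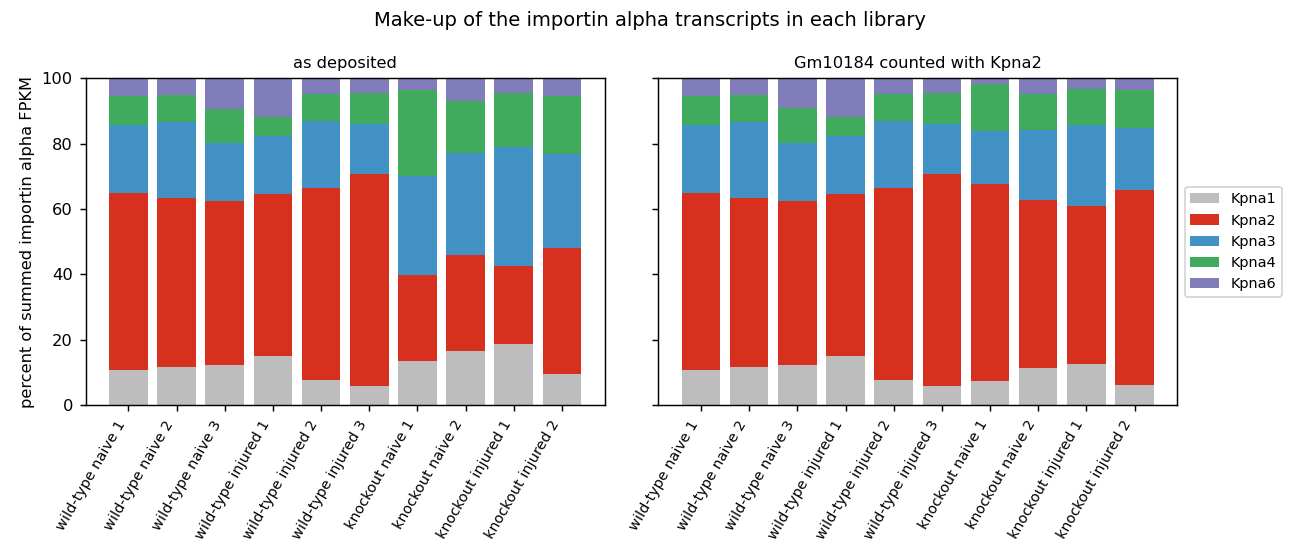
Share of each importin alpha gene in the summed FPKM of Kpna1, Kpna2, Kpna3, Kpna4 and Kpna6, per library, as deposited (left) and with Gm10184 counted as Kpna2 (right). The Kpna2 share of knockout libraries is 24.0% to 38.5% on the left and 48.2% to 60.4% on the right.

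Kpna4, an importin alpha whose cargoes include NF-kappaB, was 15.0, 13.8 and 17.0 FPKM in wild-type naive and 10.4, 13.5 and 17.2 FPKM in wild-type injured libraries. In knockout libraries it was 28.6 and 19.4 FPKM (naive) and 20.6 and 20.5 FPKM (injured). Each knockout library thus lay above each wild-type library, opposite in direction to Kpna2 as deposited. The difference was 0.60 ± 0.36 in naive (95% interval -0.18 to 1.38; limma adjusted p = 1) and 0.58 ± 0.36 in injured neurites (-0.20 to 1.37; limma adjusted p = 0.607). Over both conditions it was 0.59 ± 0.26 (0.038 to 1.15; limma unadjusted p = 0.0382, adjusted p = 0.624), and it did not pass. No near-identical copy of Kpna4 was found, and its exons overlap no other gene.

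Kpna6, an importin alpha of wide expression, was 9.21, 8.03 and 14.9 FPKM in wild-type naive and 20.1, 7.99 and 8.32 FPKM in wild-type injured libraries. Its knockout values were 3.70 and 8.57 FPKM (naive) and 5.75 and 6.24 FPKM (injured). The genotypes overlapped in naive neurites and did not in injured ones, where wild-type replicate 1 stood far above the others. The differences of -0.76 ± 0.55 and -0.79 ± 0.55 did not pass (limma adjusted p = 1 and 0.647).

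Kpna1, another importin alpha gene, was 18.1, 19.0 and 19.7 FPKM in the wild-type naive group, a narrow spread. It was 25.9, 12.8 and 10.5 FPKM in the wild-type injured group, and its knockout values were 14.7 and 20.4 FPKM (naive) and 23.5 and 10.9 FPKM (injured). Its spread was wide in the injured libraries of both genotypes, and the groups overlapped in all 4 pairwise comparisons (limma adjusted p = 0.791 to 1). Kpna3, the nearest relative of Kpna4, ranged only from 28.3 to 46.2 FPKM over the 10 libraries. Its differences lay between -0.13 and 0.34, with all 4 pairs of groups overlapping (limma adjusted p = 0.698 to 1).

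Kpnb1 (chromosome 11, 97159714 to 97187881) was 10.6, 10.5 and 8.61 FPKM in wild-type naive and 7.49, 9.89 and 17.8 FPKM in wild-type injured libraries. In knockout libraries it was 18.4 and 8.77 FPKM (naive) and 13.8 and 8.63 FPKM (injured). The highest values came from single libraries, wild-type injured replicate 3 and knockout naive replicate 1, and no pair of groups was apart. Its injury difference was 0.15 ± 0.44 in wild type (95% interval -0.80 to 1.10; limma adjusted p = 0.923) and -0.21 ± 0.54 in the knockout (-1.37 to 0.96; limma adjusted p = 1). These intervals leave room for a change of more than 1 log2 unit in either genotype.

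Ran (chromosome 5, 129020069 to 129024323) was the only member whose interval for injury in wild-type neurites lay above 0. It was 203, 224 and 225 FPKM in wild-type naive and 273, 279 and 340 FPKM in wild-type injured libraries, without overlap. In knockout libraries it was 277 and 229 FPKM (naive) and 260 and 253 FPKM (injured), where the injured values lay between the naive ones. The wild-type difference was 0.44 ± 0.16 (95% interval 0.10 to 0.79), or 1.36-fold, and it did not pass (limma unadjusted p = 0.0152, adjusted p = 0.243). With quantile normalization, which forces 1 distribution on all libraries, it was 0.28. The knockout difference was 0.022 ± 0.19 (limma adjusted p = 1), and the interaction of -0.42 ± 0.25 did not pass (limma adjusted p = 0.811). The single Ran copy found, Gm13461, reached at most 0.221 FPKM.

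Ranbp1 (chromosome 16, 18239784 to 18248732) was 226, 240 and 237 FPKM in wild-type naive and 325, 231 and 250 FPKM in wild-type injured libraries. Its knockout values were 340 and 249 FPKM (naive) and 251 and 252 FPKM (injured). Apart from the 2 high libraries, wild-type injured replicate 1 and knockout naive replicate 1, its values lay between 226 and 252 FPKM. The injury differences of 0.18 ± 0.18 in wild type and -0.21 ± 0.22 in the knockout did not pass (limma adjusted p = 0.701 and 0.983). Of its exon bases 3.24% are shared with the neighbouring gene Trmt2a on the other strand, whose reads an unstranded library cannot separate. Between genotypes in naive neurites the Ranbp1 values did not overlap, and the difference of 0.31 ± 0.20 did not pass. The ratio of Ran to Ranbp1 was 0.899 to 0.951 in wild-type naive and 0.839 to 1.36 in wild-type injured libraries. The lowest and the highest ratio of the wild-type libraries were both among the injured ones. In the knockout it was 0.816 and 0.921 in naive and 1.03 and 1.00 in injured libraries, without overlap.

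Stat3 (chromosome 11, 100885098 to 100939540) had the largest injury differences of the 9 genes in both genotypes, and neither passed. It was 13.0, 15.7 and 17.4 FPKM in wild-type naive and 22.6, 19.8 and 38.1 FPKM in wild-type injured libraries. In the knockout it was 8.24 and 14.4 FPKM (naive) and 13.8 and 22.9 FPKM (injured). The wild-type groups were apart, with replicate 3 well above the other injured libraries, and the knockout groups overlapped. The difference was 0.72 ± 0.37 in wild type (95% interval -0.083 to 1.52; limma adjusted p = 0.411) and 0.65 ± 0.45 in the knockout (-0.33 to 1.64; limma adjusted p = 0.958), with an interaction of -0.065 ± 0.59 (limma adjusted p = 0.993). Without wild-type injured replicate 3 the wild-type value was 0.45 ± 0.38, and without knockout naive replicate 1 or knockout injured replicate 2 the knockout value was 0.28 or 0.31.

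The wild-type injured libraries, in which Stat3 and Ran were higher, also differed in markers of cell types, in both directions. The summed astrocyte markers were 540, 501 and 640 FPKM in wild-type naive and 978, 827 and 1810 FPKM in wild-type injured libraries, and 745, 620, 865 and 976 FPKM in the knockout naive and injured libraries. Of the 10 astrocyte markers 2 passed limma's test as higher after injury in wild type, against 0.948% of all genes passing in either direction, and 9 were above 0. The 12 cycling cell markers summed to 163 to 207 FPKM in wild-type naive and 266 to 553 FPKM in wild-type injured libraries, and to 165 to 329 and 191 to 287 FPKM in knockout naive and injured libraries. None of the 12 cycling cell markers passed limma's test in wild-type injury, with 3 at an unadjusted p under 0.05 (13.9% of all genes were). The 10 interneuron markers went the other way, from sums of 455 to 713 FPKM in wild-type naive to 57.0 to 90.3 FPKM in wild-type injured libraries, and 5 passed as lower (median log2 difference -2.57). They were also lower after injury in the knockout, from sums of 489 to 857 FPKM to sums of 65.4 to 113 FPKM. There 1 passed as lower (0.0573% of all genes passed), with a median of -2.38. The neuron markers summed to 3928 to 4438 and 2681 to 3508 FPKM in wild-type naive and injured libraries. Their knockout sums were 4560 to 5003 FPKM (naive) and 3466 to 4494 FPKM (injured). In wild-type injury none passed, and 7 of 10 had an unadjusted p under 0.05 (13.9% of all genes did). These went in both directions or mixed with unchanged ones: 3 of the 10 differences were above 0, and Nefl and Nefm had higher means (36.0 to 67.7 and 7.84 to 27.3 FPKM). Wild-type injured replicate 3 was the highest library for Stat3, Ran, Kpna2 as deposited and the astrocyte and cycling cell sums. It was the lowest for the interneuron and neuron sums. That library also had the largest summed FPKM over all genes (1171840, against 726420 to 977594 in the others) and the smallest scaling factor (0.811). With median-ratio scaling the wild-type injury differences of Stat3 and Ran were 0.65 and 0.37, beside 0.72 and 0.44 without it. Beyond that, the part of library scale in its high values was not tested. Of 7 transcripts retained in nuclei, Malat1 was 1856 to 3440 FPKM in wild-type naive and 5513 to 6633 FPKM in wild-type injured libraries and passed as higher. The other 6, Meg3 chief among them, summed to 756 to 952 and 590 to 891 FPKM, 2 of the 7 differences were above 0, and the list's median was -0.21. The part of cell make-up and of nuclear RNA in the values of Stat3 and Ran was not tested.

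**Figure D5:**
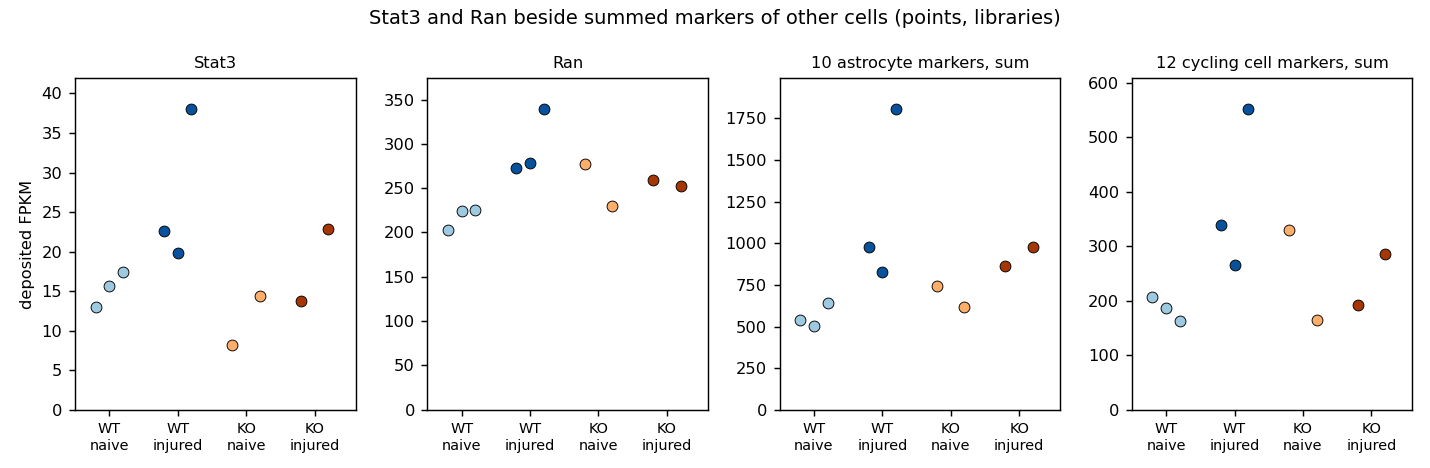
Deposited FPKM of Stat3, of Ran and of the summed astrocyte and cycling cell markers in each library (points, by group; WT, wild type; KO, knockout). Wild-type injured replicate 3 is the highest point in all 4 panels, at 38.1, 340, 1810 and 553 FPKM. That library also had the largest summed FPKM over all genes.

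Cpeb1 protein binds the cytoplasmic polyadenylation element, U-rich motifs in 3′ untranslated regions that are written in DNA letters as TTTTAT or TTTTAAT and were searched here on the transcript strand only. Kpna4 held 14 of them in 6940 nt, Kpna1 held 6 in 3223 nt, and Kpna3, Kpna6 and Kpnb1 held 4 each in 2420, 4012 and 2967 nt. Stat3 held 2 in 3701 nt and Ran 1 in 1505 nt. Kpna2, with 258 nt, and Ranbp1, with 303 nt, held neither motif, which says only that these letters are not in the annotated region. Of all 13120 tested genes with such a region 62.4% held at least 1. Among regions of like length (0.8 to 1.25 times) the share was 26.4% for Kpna2, 29.7% for Ranbp1, 74.5% for Ran, 90.5% for Kpnb1 and 92.5% for Stat3. The members with the most motifs for their length class were Kpna4, against a median of 9, and Kpna1, against a median of 4. The median was 3 for the class of Kpnb1, while Kpna6, Ran and Stat3 held fewer than their class medians of 5, 2 and 4. The sites of Kpnb1 are printed because its mRNA is translated in injured axons, and those of Ran and Stat3 because their proteins take part in the signalling described above. Capitals mark the motif, and coordinates are mm10.
Kpnb1, chr11:97161953-97161980, minus strand: tttggtttcaTTTTAATtactctaggga
Kpnb1, chr11:97161077-97161104, minus strand: accgaggaagtTTTTATtgcttcctggt
Kpnb1, chr11:97160351-97160378, minus strand: tggttacgcaTTTTAATcctcttttagt
Kpnb1, chr11:97159714-97159737, minus strand: gtccgctttatTTTTATtttcaac
Ran, chr5:129022843-129022870, plus strand: cagaagtctagTTTTATaggcaactgtc
Stat3, chr11:100888569-100888596, minus strand: agatttttttTTTTAATttcctacttct
Stat3, chr11:100887149-100887176, minus strand: ggcttgggcatTTTTATggctttcaatc
The last Kpnb1 motif starts 13 nt from the 3′ end of its annotated region, whereas the Ran motif starts 36 nt into a region of 1505 nt, far from the end. A match is a description of these letters and not a measured binding site. None of these 3 genes passed limma's test between genotypes, with differences of 0.34 and -0.0080 for Kpnb1, 0.22 and -0.21 for Ran and -0.44 and -0.51 for Stat3 in naive and injured neurites.

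Genes that work beside the members in nuclear transport had no call in any comparison. Among 11 tested of 13 other importins and transportins, 7 exportins, 8 genes of the Ran cycle and 26 of 28 nucleoporins, limma called 0 in each of the 4 pairwise comparisons and the interaction. Of these 52 genes 5 had an unadjusted p under 0.05 after injury in wild type (13.9% of all genes did), 0 after injury in the knockout (5.73%), 1 and 3 between genotypes in naive and injured neurites (3.76% and 10.5%) and 1 in the interaction (6.23%). The list medians after injury in wild type were 0.23, -0.22, 0.0095 and 0.25. The largest were nucleoporin genes, Nup54 of the central channel at 1.29 ± 0.35 (limma adjusted p = 0.119) and Aaas at 1.21 ± 0.35 (limma adjusted p = 0.154), and Rangrf, which binds Ran, at 1.25 ± 0.39 (limma adjusted p = 0.189). Nup54 was 22.9, 16.6 and 10.8 FPKM in wild-type naive and 47.6, 42.95 and 33.4 FPKM in wild-type injured libraries, apart but not past the threshold. Tnpo1, the transportin that carries hnRNP proteins, had a value of 1.07 ± 0.48 (limma adjusted p = 0.339), and the exportin gene Xpo4 one of -0.48 ± 0.61 (limma adjusted p = 0.776).

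The axonal delivery of importin beta mRNA uses nucleolin (Ncl) and kinesin-1, whose heavy chains include Kif5b. None of the 5 genes of that list passed limma's test. At an unadjusted p under 0.05 were 2 after injury in wild type (13.9% of all genes were), 2 between genotypes in injured neurites (10.5%) and 2 in the interaction (6.23%). In the other comparisons 0 were. Ncl was 81.6, 98.6 and 87.9 FPKM in wild-type naive and 142, 122 and 165 FPKM in wild-type injured libraries, without overlap, a difference of 0.67 ± 0.19 (limma adjusted p = 0.144). In the knockout its difference was 0.020 ± 0.23 (limma adjusted p = 1). The list's median after injury in wild type was -0.37. Kif5a and Kif5c, the other heavy chains, had lower means after injury in wild type (59.4 ± 5.80 to 45.1 ± 4.22 and 57.8 ± 6.87 to 44.5 ± 4.43 FPKM, SD, n = 3 and 3), as did Mtor (27.1 ± 9.41 to 19.5 ± 20.7 FPKM). Kif5b gave 0.76 ± 0.24 in wild type and -0.52 ± 0.30 in the knockout (limma adjusted p = 0.192 and 0.933). Of 18 genes of the dynein motor and its injury cargo 1 passed, after injury in wild type, where 0.948% of all genes did. It was Vim, the intermediate filament vimentin that links phosphorylated ERK to importin beta in injured nerve, which rose from 115 ± 50.8 to 424 ± 191 FPKM (SD, n = 3 and 3), a log2 difference of 1.88 ± 0.39 (limma adjusted p = 0.0435). Vim is also a radial glia marker, and its call was lost on leaving out any naive library of either genotype, or replicate 1 or 3 of the wild-type injured group, and with a pseudocount of 0.1, no filter or no trend (9 of 19 alternatives passed). The other 17 genes of that list did not pass, and the list's median was -0.23.

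Upstream of Stat3, none of 5 tested ligands of the gp130 cytokine receptor, 9 receptors and kinases, 3 other STAT genes or 11 inhibitors of STAT3 signalling passed limma's test. Of these 28 genes 5 and 3 had an unadjusted p under 0.05 after injury in wild type and knockout (13.9% and 5.73% of all genes did), 2 and 2 between genotypes in naive and injured neurites (3.76% and 10.5%), and 2 in the interaction (6.23%). Socs1, a feedback inhibitor, had a difference of 2.30 ± 0.65 in wild type and 1.49 ± 0.80 in the knockout (limma adjusted p = 0.144 and 0.932). Il11ra1, a receptor chain that pairs with gp130, had one of 1.35 ± 0.47 in wild type (limma adjusted p = 0.232). Ptpn11, a phosphatase of this pathway, gave -1.11 ± 0.42 between genotypes in injured neurites (limma adjusted p = 0.376).

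Of 12 tested genes listed as STAT3 targets, 3 rose after injury in wild type and none fell, where 0.948% of all genes passed in either direction. Fos and Junb, both AP-1 subunits, rose by 6.91 ± 0.47 and 5.65 ± 0.45 (limma adjusted p = 1.68e-05 and 7.48e-05), and the growth regulator Myc by 1.11 ± 0.22 (limma adjusted p = 0.0353). These 3 are also immediate early genes that other pathways induce. The list, which also holds the astrocyte marker Gfap, had a median injury difference of 0.98 in wild type and 0.22 in the knockout. Myc rose from 37.6 ± 1.45 to 83.3 ± 15.0 FPKM (SD, n = 3 and 3), and leaving out any library except replicate 2 of the wild-type injured group ended its call, which held in 7 of 19 alternatives (limma adjusted p up to 0.154). In the knockout Junb rose by 3.50 ± 0.55 (limma adjusted p = 0.0475), a call that held in 3 of 19 alternatives and ended on leaving out any library except replicate 3 of the wild-type injured group. There Fos gave 3.56 ± 0.58 and Myc 0.42 ± 0.27 (limma adjusted p = 0.0551 and 0.943). None of the 12 passed limma's test between genotypes, where 2 and 4 had an unadjusted p under 0.05 in naive and injured neurites (3.76% and 10.5% of all genes did). The list's median between genotypes was 0.44 in naive and -0.98 in injured neurites, with 8 and 2 differences above 0. Over all tested genes these medians were 0.063 and -0.049.

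For each member the genes of most similar pattern were sought among 7368 genes at or above the median level, by the root mean square difference of log2(value + 1), each gene centred on its own mean over the 10 libraries. Kpnb1 was matched most closely by Krba1 (0.12, against its own deviation of 0.40), and Ran by Med28 and Rpl3 (0.098 and 0.10, against 0.20). The nearest to Kpna2 were Serinc3 and Mlst8, at 0.33 and 0.36 against its own deviation of 0.72. Stat3 was nearest to Gpt2 and Srsf11 (0.22 each, against 0.53) and Ranbp1 to Nedd8 and Fnta (0.11 and 0.12, against 0.19). Kpna1 lay nearest to Spin1 (0.20), Kpna3 to Eif4g2 (0.11), Kpna4 to Ap2s1 (0.16) and Kpna6 to Ipo9, another importin gene (0.30). Each pattern rests on 10 libraries, and the values describe likeness only.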

How the data were processed

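Neurite libraries were made by Smart-seq2 from 1 ng of RNA with 14 and then 11 cycles of PCR, per the labels' protocols, and are not stranded. STAR 2.4.2a, RSEM 1.2.21 and mm10 are named in the submitters' processing notes. The deposited values were taken as FPKM made by the authors, each library divided by its own factor. This is inferred from the values and not from the notes: in each library every value came within 0.001 of a multiple of 0.01 divided by that library's factor (0.811 to 1.11), and undivided values times transcript length gave nearly the same sum in every library. Counts were not used, so no counting intervals are given, and depth is an estimate.

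The 15712 genes that reached a value of 1 in 2 or more libraries were tested on log2(value + 1). limma 3.58.1 under R 4.3.3 fitted the 4 group means to all 10 libraries at once, using eBayes with a trend (6 residual and 6.80 prior degrees of freedom). Benjamini-Hochberg adjustment of p-values ran over all tested genes within a comparison, at 0.05. Every p and adjusted p here is limma's, two-sided, and fold changes understate those of low genes. Of 45195 gene IDs 44548 matched GENCODE release M21, which gave symbols, positions, transcripts and 3′ untranslated regions, here of the longest protein-coding transcript. Copies of members were sought with blastn 2.17.0 on the same strand (identity 95% or more, 150 nt or more, covering 50% or more of the shorter transcript). The fit was tested on simulated data.

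The members, gene lists and tests were chosen with earlier results of these data known. All 9 members were named, and of each pathway list the members that passed in any comparison (at most 6), otherwise those 2 with the smallest p; not all of the latter are described. Alternatives were the pseudocount, the filter on low values, quantile and median-ratio scaling, no trend, only the groups compared, a replicate block, and leaving out each library. The genotype difference over both conditions and the sum with Gm10184 were chosen after the values were seen. Replicate numbers are shared between groups, but same-numbered libraries did not deviate together (13 pairs, r from -0.048 to 0.041), so they were not treated as pairs. Deviations from a group mean mirror each other in groups of 2 libraries, so the 13 pairs are not independent checks.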

Additional observations from a re-analysis of the deposited data

How the results depend on the processing

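No member passed in either injury comparison or the interaction under any alternative run. In naive neurites the number of members called between genotypes was 1 (Kpna2) with quantile normalization, median-ratio scaling or only the groups compared. In injured neurites it was 0 with no filter on low values, median-ratio scaling, no trend, only the groups compared, a replicate block, the sum with Gm10184, and without any 1 library (0 to 0). Over both conditions it was 0 with no trend and with the sum. With the replicate block the Kpna2 differences were -1.35, -1.37 and -1.36 in naive, in injured and over both conditions (limma adjusted p = 0.218, 0.110 and 0.0153), and the block changed no other member's call, while Junb after injury in the knockout no longer passed (limma adjusted p = 0.0956). Over 19 alternatives other than the sum, Kpna2 ranged from -1.57 to -1.22 in naive (3 passing) and from -1.68 to -1.14 in injured neurites (4 passing).

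Counted with Gm10184, Kpna2 changed sign to -0.13 for injury in the knockout, 0.29 for genotype in naive neurites and 0.13 over both conditions. Ran in naive neurites was -0.0014 with quantile normalization. Leaving out 1 library reversed uncalled values, which ranged from -0.62 to 0.42 for Kpna1 and from -0.43 to 0.015 for Ranbp1 (injury in the knockout), from -0.15 to 0.84 for Kpnb1 (genotype, naive) and from -0.45 to 0.60 for Kpna1 (genotype, injured). An uncalled value that changed sign by less than 1 SE was counted as unchanged. Median-ratio scaling moved the interaction's median over all genes from -0.13 to 0.0036, and quantile normalization moved it to 0.017. Ranked by median, 4 members changed places. The causes were not tested. With 2 or 3 libraries a group, 95% intervals of single members spanned 0.69 to 2.61 log2 units in pairwise comparisons.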
